A study of Mus musculus with 48 samples.

Results

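The ETS transcription factors described here are 10 genes, *Spic*, *Spi1*, *Spib*, *Ets1*, *Ets2*, *Fli1*, *Elf1*, *Elf4*, *Elk3* and *Etv3*. They were taken by symbol from the 54735 genes counted in each RNA-seq library. All 10 were found in the tables, and all 10 passed the filter on low counts in every comparison. The libraries came from splenic cells of male Balb/c mice, 10 weeks old, that were either WT or labelled IL1RL1-/-, with 4 libraries per cell type and genotype, labelled as mouse 1 to mouse 4. Monocytes (Ly6Glo CD11bhi F4/80-), precursors of red pulp macrophages called pre-RPMs (Ly6Glo CD11bhi F4/80lo) and red pulp macrophages, or RPMs (Ly6Glo CD11blo/- F4/80hi), were sorted and sequenced separately, which gave 6 groups of 4 libraries, 24 in all. The same mouse numbers recur in each cell type, no source states that they mark the same animals, and the labels name no treatment, and the way in which the receptor gene was disrupted is not given in the sources used here. The comparisons follow the route from monocyte to RPM within each genotype, and set libraries labelled IL1RL1-/-, after the interleukin-33 receptor, beside WT within each cell type. Library totals ran from 3562367 to 6559454 counts, so that 3 counts corresponded to between 0.451 and 0.896 CPM, the count of a gene relative to the size of its library. All levels below are CPM scaled between libraries with edgeR's TMM factors.

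ETS factors share a winged helix DNA-binding domain that reads a short core, GGAA, and they differ in the flanking bases they prefer and in the partners they bind. *Spi1* encodes PU.1, which is needed for the myeloid lineages, and *Spic* and *Spib* are its closest relatives. *Spic* is induced when heme accumulates in monocyte-derived cells of the spleen and is required for RPMs to form. RPMs clear senescent red blood cells and return their iron to the circulation.

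*Il1rl1* (ENSMUSG00000026069, chromosome 1, 40429570 to 40465415, plus strand, GRCm38) was counted in every library. The WT monocyte libraries of mice 1 to 4 held 28, 19, 12 and 13 of its reads, and the monocyte libraries labelled IL1RL1-/- held 51, 73, 71 and 64. Pre-RPMs had 18, 15, 13 and 24 reads under the WT label and 50, 76, 42 and 65 under the other. RPMs had 5, 9, 7 and 13 reads under the WT label and 1, 7, 3 and 6 under the other. In monocytes and pre-RPMs, the libraries labelled IL1RL1-/- therefore held more *Il1rl1* reads than the WT libraries, without overlap, and only in RPMs did the means follow the label. By edgeR's quasi-likelihood test, with p-values adjusted after Benjamini and Hochberg over all genes, monocytes differed by a log2 fold change of 2.13 ± 0.23 (SE, adjusted p = 0.00882) and pre-RPMs by 1.52 ± 0.20 (SE, adjusted p = 0.00107). Without the monocyte library labelled IL1RL1-/- of mouse 2, the monocyte value was 2.09 with an adjusted p of 0.053. In RPMs the gene did not pass the filter on low counts. The genotype is accordingly given as the label of the library throughout.

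RPM markers were far higher in the libraries labelled RPM than in the others, whereas monocyte markers were no higher in monocytes than in pre-RPMs. The summed level of 5 monocyte markers (*Ly6c2*, *Ccr2*, *Fn1*, *Plac8* and *F13a1*) was 1298 ± 893 CPM (SD, n = 4) in WT monocytes, 2382 ± 437 in WT pre-RPMs and 28.1 ± 17.8 in WT RPMs. The 6 RPM markers (*Vcam1*, *Cd163*, *Cd5l*, *Slc40a1*, *Mertk* and *C1qa*) summed to 17.4 ± 5.53, 48.6 ± 46.9 and 4853 ± 591 CPM in the same groups. The WT pre-RPM library of mouse 3 stood apart, with 117 CPM of RPM markers against 16.3 to 39.7 in the other 3.

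Transcripts of other cells were also present and differed between groups. In monocytes of mice 1 to 4, the 7 NK cell markers (*Ncr1*, *Klrb1c*, *Gzma*, *Prf1*, *Klrd1*, *Eomes* and *Nkg7*) summed to 1646, 1918, 579 and 1077 CPM in WT and to 1580, 1199, 514 and 815 CPM in libraries labelled IL1RL1-/-, with *Gzma* the most abundant. Mice 1 and 2 thus had the most NK transcripts and the fewest monocyte transcripts in both genotypes, with monocyte marker sums of 706.1 and 420.7 CPM against 2343 and 1723 CPM in WT. In WT monocytes, the mean NK sum of 1305 CPM was close to that of the monocyte markers. For the 6 neutrophil markers, the mean sum was 1342 CPM in WT monocytes, 188 CPM in WT pre-RPMs and 12.8 CPM in WT RPMs. The 6 erythroid markers went the other way, with sums of 202, 229, 664 and 447 CPM in WT RPMs and at most 31.0 CPM in any WT pre-RPM library. In bulk samples such as these, fewer cells of a type and less RNA per cell cannot be told apart. For *Spic*, *Spi1*, *Spib*, *Ets1* and *Ets2*, some changes from monocytes are given also without the monocyte libraries of mice 1 and 2, and gene lists, shares and differences between genotypes in a change were not recomputed so.

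Of the 10 members, 7 matched a RefSeq promoter of GRCm38.p6, taken here as the 250 bases before the gene's start, and *Spi1*, *Ets1* and *Fli1* did not. *Spic* and *Ets2* rose into RPMs, and *Spi1*, *Elk3* and *Etv3* fell from pre-RPMs to RPMs in both genotypes. The promoters of these genes, apart from *Spi1*, for which none matched, are shown so that their ETS cores can be compared. They lie at chr10:88683024-88683273 (minus strand) for *Spic*, chr16:95702157-95702406 (plus) for *Ets2*, chr10:93311160-93311409 (minus) for *Elk3* and chr3:87525328-87525577 (plus) for *Etv3*. Each is written 5′ to 3′ on the strand of the gene, with the ETS core, GGAA or its complement TTCC, in capitals.
Spic: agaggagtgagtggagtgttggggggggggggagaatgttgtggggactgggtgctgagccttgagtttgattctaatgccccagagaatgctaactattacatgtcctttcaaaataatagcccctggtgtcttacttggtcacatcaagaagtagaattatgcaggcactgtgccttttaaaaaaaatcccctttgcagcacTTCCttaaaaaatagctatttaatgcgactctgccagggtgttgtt
Ets2: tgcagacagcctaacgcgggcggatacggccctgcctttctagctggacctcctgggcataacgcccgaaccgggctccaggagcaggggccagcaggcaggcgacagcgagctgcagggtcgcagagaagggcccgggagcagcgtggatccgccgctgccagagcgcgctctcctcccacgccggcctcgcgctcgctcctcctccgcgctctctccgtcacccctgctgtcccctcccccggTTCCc
Elk3: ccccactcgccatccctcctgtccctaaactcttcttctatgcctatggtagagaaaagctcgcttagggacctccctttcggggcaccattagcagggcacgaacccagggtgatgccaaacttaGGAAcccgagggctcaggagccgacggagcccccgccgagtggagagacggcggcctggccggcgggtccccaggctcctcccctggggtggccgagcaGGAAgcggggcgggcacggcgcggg
Etv3: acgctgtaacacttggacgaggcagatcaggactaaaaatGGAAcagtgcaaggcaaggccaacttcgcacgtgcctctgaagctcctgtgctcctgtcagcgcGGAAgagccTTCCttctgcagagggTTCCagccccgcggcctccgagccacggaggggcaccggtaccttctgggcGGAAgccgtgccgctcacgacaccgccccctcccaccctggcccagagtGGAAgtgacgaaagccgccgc
*Spic* and *Ets2* each held 1 core in this window, *Elk3* held 2 and *Etv3* held 6. The core of *Spic* lay between 46 and 43 bases before the start, and that of *Ets2* between 5 and 2 bases before it. Among the other matched members, *Spib* held 1 core, the windows of *Elf1* held 2 and 0, and those of *Elf4* held 2 and 6. The core is common, since 93.5% of 32851 promoters of this length held it on either strand, with a median of 3 sites. None of the 9 promoter windows of the 7 members held the longer PU.1 box GAGGAAGT, which contains the core and occurred in 2.44% of all promoters, the GATA core GATAA (22.6%) or the Maf element core GCTGAGTCA (0.390%), each searched on both strands. The RefSeq start of *Spic* lies inside the span of the gene in the annotation used for counting (chromosome 10, 88674772 to 88685015, minus strand), so that other starts of this gene were not examined.

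Between cell types, a gene was called when edgeR's adjusted p was under 0.01 and the change was more than 2-fold. From WT monocytes to WT pre-RPMs, 1 member rose, *Spic*, against a background of 0.316% of all genes tested that rose, and 1 fell, *Ets1*, against 3.25%. From WT pre-RPMs to WT RPMs, *Spic* and *Ets2* rose (background 14.0%) and *Spi1*, *Elk3* and *Etv3* fell (background 10.7%). From WT monocytes to WT RPMs, *Spic* and *Ets2* rose (13.4%) and *Ets1*, *Elf4* and *Elk3* fell (10.5%). In the libraries labelled IL1RL1-/-, *Spic* rose (0.974%) and *Ets1* fell (3.88%) from monocytes to pre-RPMs. From pre-RPMs to RPMs, *Spic* and *Ets2* rose (14.5%) and *Spi1*, *Elf4*, *Elk3* and *Etv3* fell (11.5%). From monocytes to RPMs, the 2 that rose (14.3%) and the 3 that fell (11.6%) were those called in WT. From pre-RPMs to RPMs, 2 of 10 is near the background for a rise and 3 or 4 of 10 is above that for a fall, with no test of either share. *Spib*, *Elf1* and *Fli1* were called in none of these 6 comparisons. Over the members, the median log2 fold change was −0.31 from WT monocytes to WT pre-RPMs, −0.14 from WT pre-RPMs to WT RPMs and −0.67 from WT monocytes to WT RPMs, where the medians over all genes tested lay between −0.006 and 0.007.

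**Figure D1:**
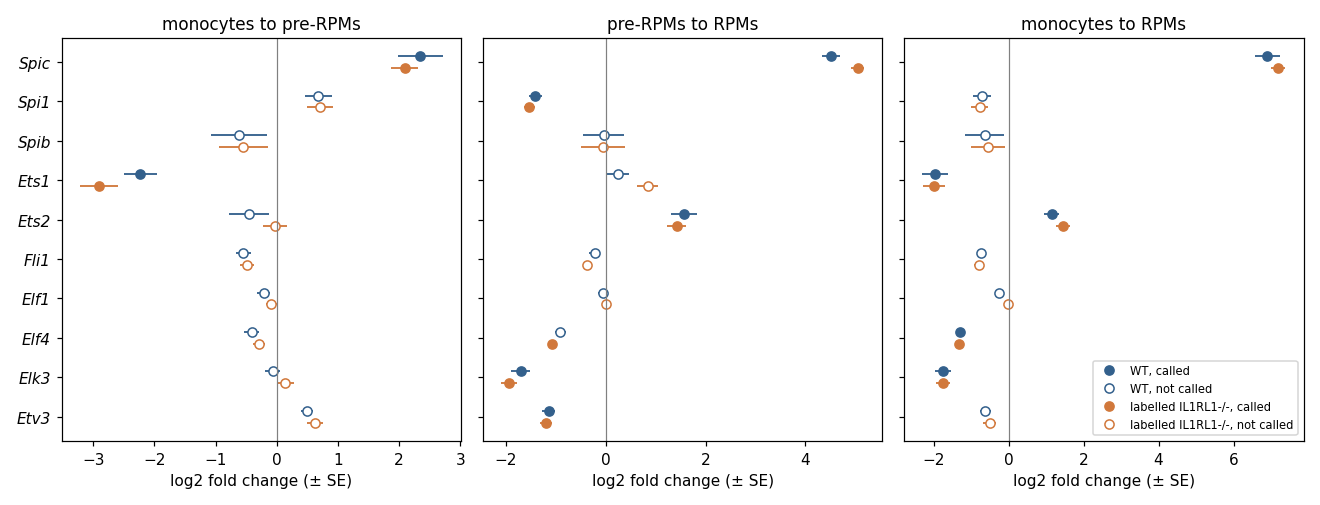
Log2 fold change (x axis, ± SE) of each of the 10 ETS factors (y axis) from monocytes to pre-RPMs, from pre-RPMs to RPMs and from monocytes to RPMs, in WT (blue) and in libraries labelled IL1RL1-/- (orange). Filled points passed an adjusted p of 0.01 and a 2-fold change. *Spic* stands apart on the right of each panel, *Ets1* on the left of the first, and *Spi1*, *Elk3* and *Etv3* on the left of the second.

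*Spic* (ENSMUSG00000004359), the heme-induced factor, rose at both steps. In monocytes of mice 1 to 4, its level was 2.46, 0.802, 4.84 and 2.26 CPM in WT and 1.73, 2.53, 3.24 and 2.69 CPM in libraries labelled IL1RL1-/-. In pre-RPMs, it was 13.1, 8.43, 14.0 and 16.2 CPM in WT and 9.02, 11.8, 11.6 and 11.4 CPM in libraries labelled IL1RL1-/-. In RPMs, it was 313, 274, 297 and 348 CPM in WT and 351, 435, 356 and 374 CPM in libraries labelled IL1RL1-/-. The 3 cell types were fully separated in both genotypes, and even the lowest pre-RPM library held more *Spic* than the highest monocyte library. The monocyte values rest on few reads, from 4 to 21 per library, whereas RPM libraries had from 1108 to 2649.

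By edgeR, *Spic* was 5.09-fold higher in WT pre-RPMs than in WT monocytes (log2 fold change 2.35 ± 0.37 SE, adjusted p = 0.00229), and 22.9-fold higher again in WT RPMs (4.52 ± 0.18, adjusted p = 1.88e-10). The whole distance from WT monocytes to WT RPMs was 119-fold (6.90 ± 0.33, adjusted p = 5.95e-08). The steps in the libraries labelled IL1RL1-/- were 4.26-fold (2.09 ± 0.22, adjusted p = 0.000101) and 33.1-fold (5.05 ± 0.13, adjusted p = 1.17e-13). The first step in WT is the least certain of them. Without the WT pre-RPM library of mouse 1 it was 2.35 with an adjusted p of 0.0108, and without that of mouse 4 it was 2.22 with an adjusted p of 0.0128, both just past the threshold. Without the monocyte libraries of mice 1 and 2 it was 1.94 (adjusted p = 0.00294) and still called, as was the whole distance to WT RPMs, at 6.48, and to RPMs labelled IL1RL1-/-, at 6.95.

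**Figure D2:**
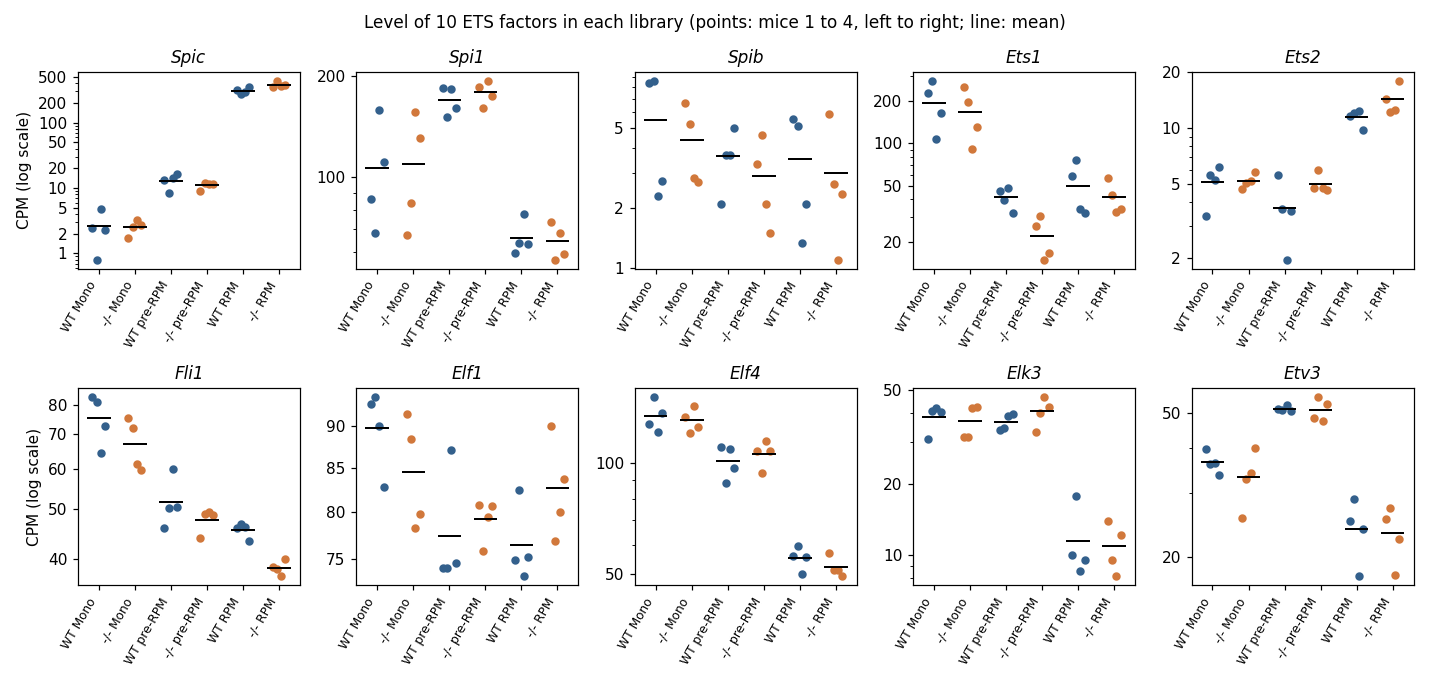
Level in CPM (y axis, log scale, a separate range for each gene) of the 10 ETS factors in each library. Points are mice 1 to 4 from left to right, lines are group means, blue is WT and orange the libraries labelled IL1RL1-/-. *Spic* rises from under 5 CPM in monocytes to 274 CPM or more in every RPM library, while *Spi1* has its highest mean in pre-RPMs and its lowest in RPMs.

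*Spi1* (ENSMUSG00000002111), encoding PU.1, had its highest mean in pre-RPMs and fell into RPMs in both genotypes. In WT, its level in mice 1 to 4 was 86.2, 68.4, 159 and 111 CPM in monocytes, 185, 152, 183 and 160 CPM in pre-RPMs, and 59.3, 63.8, 77.5 and 63.3 CPM in RPMs. In the libraries labelled IL1RL1-/-, it was 67.5, 83.8, 156 and 131 CPM in monocytes, 185, 161, 194 and 175 CPM in pre-RPMs, and 73.4, 56.8, 68.0 and 59.2 CPM in RPMs. All pre-RPM libraries were above all RPM libraries, while the monocyte libraries of mice 1 and 2 sat beside the RPM libraries and those of mice 3 and 4 lay higher, from 111 to 159 CPM.

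The fall from pre-RPMs to RPMs was 2.66-fold in WT (log2 fold change −1.41 ± 0.12 SE, adjusted p = 2.83e-07, edgeR) and 2.89-fold in the libraries labelled IL1RL1-/- (−1.53 ± 0.11, adjusted p = 7.36e-09). From monocytes to pre-RPMs, the change was 0.68 (adjusted p = 0.0588) in WT and 0.71 (adjusted p = 0.0393) in libraries labelled IL1RL1-/-, neither of which passed. Without the monocyte libraries of mice 1 and 2, these were 0.336 (adjusted p = 0.269) and 0.308 (adjusted p = 0.128). From monocytes to RPMs it was −0.71 (adjusted p = 0.0273) and −0.77 (adjusted p = 0.0144), also not called. The call in this last comparison depended on which monocyte libraries were used. Without those of mice 1 and 2, *Spi1* was lower in RPMs than in monocytes by a called −1.05 (adjusted p = 0.000447) in WT and −1.20 (adjusted p = 1.95e-05) in libraries labelled IL1RL1-/-. The libraries left out had the highest NK and the lowest monocyte marker sums among the monocyte libraries, and the part of the other cells in the *Spi1* level was not tested.

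*Spib* (ENSMUSG00000008193), which acts in B cells and plasmacytoid dendritic cells, stayed low everywhere. Its WT levels were 8.45, 8.63, 2.30 and 2.71 CPM in monocytes, 2.10, 3.69, 3.69 and 5.02 CPM in pre-RPMs, and 5.53, 5.11, 1.34 and 2.09 CPM in RPMs, from 5 to 55 reads per library. The groups overlapped, and no comparison called it. In WT monocytes and RPMs, the libraries of mice 1 and 2 had the most *Spib* and also the most B cell markers. The 6 markers summed to 60.2, 81.6, 19.3 and 30.2 CPM in WT monocytes, 45.8, 37.9, 55.6 and 52.1 CPM in WT pre-RPMs and 63.6, 87.5, 27.9 and 41.0 CPM in WT RPMs. All 6 were detected in each of these groups. Without the monocyte libraries of mice 1 and 2, the difference between WT monocytes and WT pre-RPMs turned from −0.62 to 0.51 (log2 fold change), still not called. The part of B cells in the *Spib* level was not tested.

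*Ets1* (ENSMUSG00000032035), a factor of T and NK cells, was highest in monocyte libraries and fell into pre-RPMs. In monocytes of mice 1 to 4, it was 226, 278, 107 and 164 CPM in WT and 251, 195, 91.4 and 131 CPM in libraries labelled IL1RL1-/-. In pre-RPMs, it was 46.0, 39.8, 48.0 and 32.0 CPM in WT and 25.9, 30.5, 14.9 and 16.7 CPM in libraries labelled IL1RL1-/-. In RPMs, it was 58.5, 76.1, 34.1 and 31.8 CPM in WT and 57.2, 42.7, 32.6 and 34.2 CPM in libraries labelled IL1RL1-/-. Every monocyte library was above every other library, and the order of the 4 WT monocyte libraries in *Ets1* was that of their NK marker sums.

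The fall from monocytes to pre-RPMs was 4.68-fold in WT (log2 fold change −2.23 ± 0.26 SE, adjusted p = 0.00052, edgeR) and 7.48-fold in the libraries labelled IL1RL1-/- (−2.90 ± 0.32, adjusted p = 0.000133). Without the monocyte libraries of mice 1 and 2, the changes were −1.72 (adjusted p = 4.16e-05) and −2.32 (adjusted p = 2.95e-06), both called, and those from monocytes to RPMs were −1.45 and −1.46, also called. All 7 NK markers fell at the same step in both genotypes, with a median log2 fold change of −3.63 in WT and −5.20 in libraries labelled IL1RL1-/-. By edgeR, all 7 had an unadjusted p under 0.05 in each genotype. Among all genes tested, 3540 of 11091 in WT and 3425 of 11196 in libraries labelled IL1RL1-/- had one, in either direction. None of the 7 was at 0 in all libraries of any group. In pre-RPMs, the NK sum was 112, 147, 89.3 and 72.6 CPM in WT and 19.7, 55.0, 30.5 and 15.0 CPM in libraries labelled IL1RL1-/-. The study's flow cytometry took these populations from cells low in NK1.1, an NK cell antigen, and the labels of the libraries do not name this gate. The part of NK cells in the *Ets1* level was not tested. From pre-RPMs to RPMs, the log2 fold change of *Ets1* was 0.24 (adjusted p = 0.437) in WT and 0.84 (adjusted p = 0.00353) in libraries labelled IL1RL1-/-, less than 2-fold. Without the pre-RPM library labelled IL1RL1-/- of mouse 2, the latter was 1.05 and called.

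**Figure D3:**
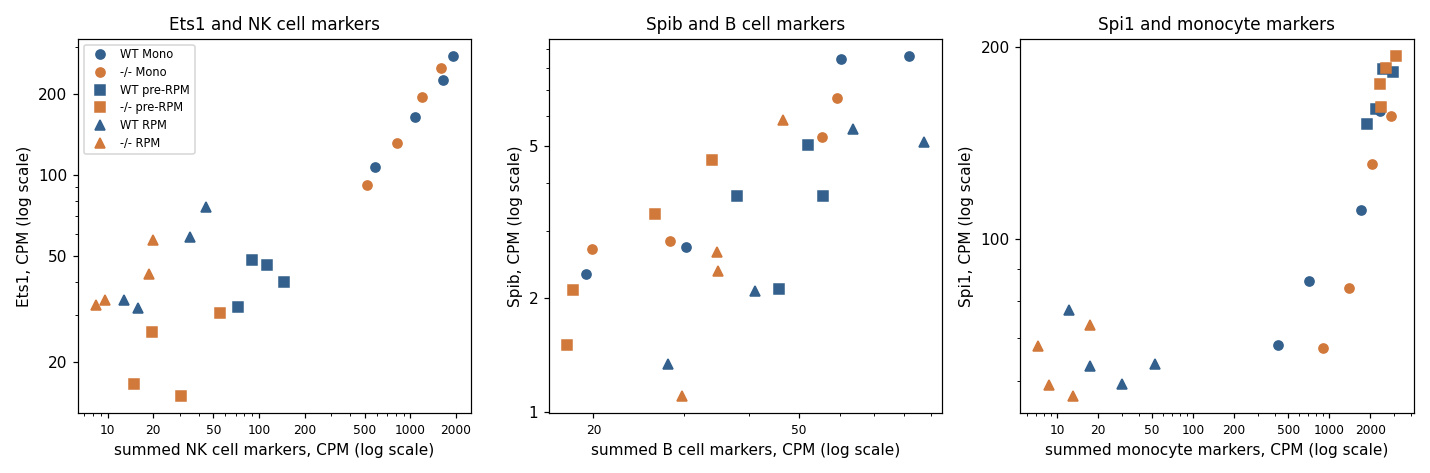
Level of *Ets1*, *Spib* and *Spi1* (y axes, CPM, log scale) against the summed level of NK cell, B cell and monocyte markers (x axes, CPM, log scale) in the 24 libraries. Circles are monocytes, squares pre-RPMs and triangles RPMs, blue is WT and orange the libraries labelled IL1RL1-/-. The 8 monocyte libraries hold the highest *Ets1* and NK marker levels, and 4 of them, from mice 1 and 2, have the lowest *Spi1* and monocyte marker levels among monocytes.

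*Fli1* (ENSMUSG00000016087), a factor of megakaryocytes, endothelium and early blood cells, lies next to *Ets1* on chromosome 9 (32422204 to 32542861 and 32636221 to 32757820). Its group means went from 75.2 ± 8.53 CPM (SD, n = 4) in WT monocytes through 51.6 ± 5.80 CPM in pre-RPMs to 45.6 ± 1.52 CPM in RPMs, and from 67.1 ± 7.80 through 47.7 ± 2.53 to 38.4 ± 1.25 CPM in the libraries labelled IL1RL1-/-. Monocytes and RPMs did not overlap, and the difference had an adjusted p of 0.00028 in WT and 8.22e-05 in libraries labelled IL1RL1-/- (edgeR). It stayed under 2-fold, with log2 fold changes of −0.74 ± 0.11 and −0.80 ± 0.11 (SE), so *Fli1* was not called.

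*Ets2* (ENSMUSG00000022895), which responds to growth factor signals through Ras, was the other member to rise into RPMs. In WT, its level was 3.38, 5.62, 5.30 and 6.17 CPM in monocytes, 5.60, 3.69, 1.97 and 3.58 CPM in pre-RPMs and 11.7, 12.1, 12.3 and 9.74 CPM in RPMs. Under the label IL1RL1-/-, it was 4.70, 5.07, 5.19 and 5.78 CPM, 4.75, 5.96, 4.78 and 4.68 CPM, and 14.4, 12.1, 12.5 and 17.97 CPM. Every RPM library was above every other library, whereas monocytes and pre-RPMs overlapped. From pre-RPMs to RPMs, *Ets2* rose 2.96-fold in WT (log2 fold change 1.57 ± 0.25 SE, adjusted p = 0.000139, edgeR) and 2.68-fold in the libraries labelled IL1RL1-/- (1.42 ± 0.19, adjusted p = 1.23e-05). From WT monocytes to WT RPMs the rise of 1.15 ± 0.21 (adjusted p = 0.00105) was near the threshold, and it was 0.98 without the WT monocyte library of mouse 1 and 0.96 without those of mice 1 and 2, which were not called. The 6 erythroid markers rose in RPMs as well, and their part in the *Ets2* level was not tested. Among RPM libraries labelled IL1RL1-/-, that of mouse 4 had the most of both (659 CPM of erythroid markers and 17.97 CPM of *Ets2*), while in WT that of mouse 3, with 664 CPM of erythroid markers, had 12.3 CPM of *Ets2* and that of mouse 1, with 202 CPM, had 11.7 CPM.

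*Elf4* (ENSMUSG00000031103), needed for NK cell development, was highest in monocytes and fell into RPMs. In WT, it was 127, 150, 121 and 136 CPM in monocytes, 110, 88.3, 109 and 96.8 CPM in pre-RPMs and 55.9, 59.7, 49.9 and 55.4 CPM in RPMs, and neighbouring groups did not overlap. Libraries labelled IL1RL1-/- held from 120 to 142 CPM, from 94.0 to 114 CPM and from 49.4 to 57.0 CPM, again without overlap. The fall from monocytes to RPMs was 2.45-fold in WT (log2 fold change −1.29 ± 0.12 SE, adjusted p = 6.35e-06, edgeR) and 2.48-fold in the libraries labelled IL1RL1-/- (−1.31 ± 0.11, adjusted p = 7.81e-07). The part from pre-RPMs to RPMs was −0.91 ± 0.11 in WT, under 2-fold and so not called, and −1.07 ± 0.09 (adjusted p = 1.09e-07) in the libraries labelled IL1RL1-/-, where it was called. Whether these differ was tested as an interaction, which gave −0.15 ± 0.14 (adjusted p = 0.981). The part of NK cells in the *Elf4* level was not tested.

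*Elf1* (ENSMUSG00000036461), an activator in lymphoid and other blood cells, was the steadiest member. Its group means lay between 76.4 ± 4.08 and 89.8 ± 4.97 CPM (SD, n = 4) over the 6 groups, no library was below 73.2 or above 93.7 CPM, and none of the comparisons called it. The largest difference was −0.25 ± 0.10 (log2 fold change ± SE, adjusted p = 0.0651, edgeR) from WT monocytes to WT RPMs.

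*Elk3* (ENSMUSG00000008398), a ternary complex factor that works with *Srf* and can repress, overlapped between monocytes and pre-RPMs and fell into RPMs. In WT, it was 30.9, 40.7, 41.9 and 40.3 CPM in monocytes, 33.9, 34.5, 38.6 and 39.7 CPM in pre-RPMs and 10.0, 17.8, 8.58 and 9.51 CPM in RPMs. Under the label IL1RL1-/-, it was 31.6, 31.5, 41.7 and 42.1 CPM, 33.2, 40.0, 46.6 and 42.1 CPM, and 14.0, 9.52, 8.15 and 12.2 CPM. The RPM libraries were below all others, with the WT library of mouse 2 the highest among them. From pre-RPMs to RPMs the fall was 3.26-fold in WT (log2 fold change −1.70 ± 0.19 SE, adjusted p = 3.79e-06, edgeR) and 3.85-fold in the libraries labelled IL1RL1-/- (−1.95 ± 0.16, adjusted p = 4.16e-08).

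*Etv3* (ENSMUSG00000003382), a repressor linked to growth arrest in maturing macrophages, had its highest mean in pre-RPMs, as *Spi1* did. In WT, it was 39.9, 36.3, 36.4 and 33.7 CPM in monocytes, 51.6, 51.1, 52.6 and 50.9 CPM in pre-RPMs and 25.1, 29.0, 17.7 and 23.9 CPM in RPMs. The 3 WT cell types did not overlap. Under the label IL1RL1-/-, the ranges were 25.7 to 40.1 CPM, 47.8 to 55.5 CPM and 17.8 to 27.4 CPM, and monocytes and RPMs then overlapped. The fall from pre-RPMs to RPMs was 2.21-fold in WT (log2 fold change −1.14 ± 0.13 SE, adjusted p = 4.33e-06, edgeR) and 2.28-fold in the libraries labelled IL1RL1-/- (−1.19 ± 0.12, adjusted p = 6.61e-07). From monocytes to pre-RPMs, it was 0.49 ± 0.10 (adjusted p = 0.0113) in WT and 0.63 ± 0.13 (adjusted p = 0.00648) in libraries labelled IL1RL1-/-, less than 2-fold.

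Levels of different genes can be compared only per length, and the order of the 10 members was therefore taken from CPM per kilobase of exon. In WT monocytes, *Spi1* led with 39.4 ± 14.6 CPM per kilobase (SD, n = 4), followed by *Ets1* (22.9 ± 8.73), *Elf4* (21.7 ± 2.10) and *Fli1* (21.6 ± 2.45), and the ranges of these neighbours overlapped. *Spic* was last with 0.674 ± 0.435, overlapping with *Ets2* and *Spib* just above it. In WT pre-RPMs, *Spi1* led with 63.1 ± 6.16 and did not overlap with *Elf4* (16.4 ± 1.68), and *Spic* was in place 8 of 10. In WT RPMs, *Spic* led with 80.2 ± 8.05, well clear of *Spi1* (24.5 ± 2.95), *Fli1* (13.1 ± 0.435) and *Elf1* (11.3 ± 0.606), none of which overlapped with its neighbour. In RPMs labelled IL1RL1-/-, *Spic* stood at 98.7 ± 10.0 and *Spi1* at 23.9 ± 2.86, again without overlap, and *Elf1* (12.3 ± 0.845) and *Fli1* (11.01 ± 0.358), which overlapped with each other, came next.

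Summed over the 10 members and 17 other ETS genes, the level per kilobase was highest in RPMs. It was 175 ± 2.54 in WT monocytes, 167 ± 10.7 in WT pre-RPMs and 206 ± 3.45 CPM per kilobase in WT RPMs (SD, n = 4). *Spic* took 0.386% of it in WT monocytes, 2.01% in WT pre-RPMs and 38.98% in WT RPMs. The share of *Spi1* was 22.6%, 37.8% and 11.9% in the same groups, and that of *Ets1* was 13.03%, 2.93% and 2.88%. In the libraries labelled IL1RL1-/-, *Spic* went from 0.393% through 1.68% to 45.3%, and *Spi1* from 24.01% through 39.01% to 10.99%. As shares of a sum, these values are bound to move against each other.

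**Figure D4:**
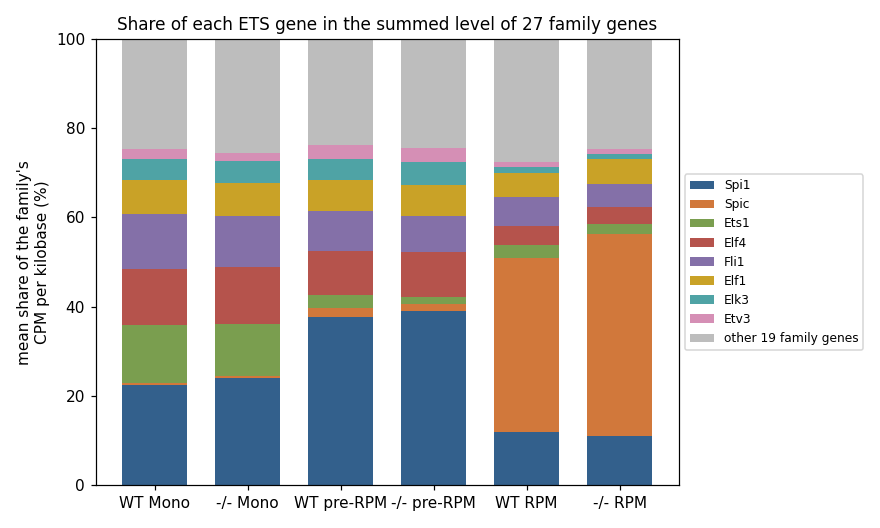
Mean share (y axis, %) of each gene in the summed CPM per kilobase of exon of 27 ETS genes, for the 6 groups on the x axis (4 libraries each, -/- stands for the label IL1RL1-/-). Grey holds the remaining 19 genes, *Spib* and *Ets2* among them. *Spi1* holds the largest share in monocytes and pre-RPMs, up to 39.01%, and *Spic* in RPMs, with 38.98% in WT and 45.3% in libraries labelled IL1RL1-/-.

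Between genotypes, where a gene was called at an adjusted p under 0.05, 1 call was made among the ETS factors. In monocytes, edgeR called none of the 10 (background 0.0614%, 7 genes, or 27 with the mouse number as a block), none had an unadjusted p under 0.05, and DESeq2 called 0. In pre-RPMs, 1 was called, *Ets1* (background 0.552%). In RPMs, none was called (background 0.233%, 26 genes, or 81 with the block), 2 had an unadjusted p under 0.05, *Spic* and *Fli1*, as had 811 of all 11150 genes, and DESeq2 called 0. The difference between the genotypes in the change from monocytes to pre-RPMs called no member and no other gene (background 0%, although 537 of 12842 genes had an unadjusted p under 0.05, and DESeq2 called 0). For the change from pre-RPMs to RPMs no member was called either (background 0.0234%), none of the 10 had an unadjusted p under 0.05, and DESeq2 called none of them.

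*Ets1* was 1.86-fold lower in pre-RPMs labelled IL1RL1-/- than in WT pre-RPMs (log2 fold change −0.89 ± 0.19 SE, adjusted p = 0.0454, edgeR), and its 4 libraries, from 14.9 to 30.5 CPM, did not overlap with the WT libraries, from 32.0 to 48.0 CPM. The call was narrow. It was lost in 7 of 14 alternatives, while the log2 fold change lay between −1.11 and −0.767 in all 14. Among the losses was the fit of all 24 libraries (−0.90, adjusted p = 0.591). The call was also lost without the WT library of mouse 1 (adjusted p = 0.134), 2 (0.0736) or 3 (0.0938). The same held without the library labelled IL1RL1-/- of mouse 1 (0.0686), 3 (0.121) or 4 (0.155). Of the 5 NK markers tested in the same comparison, 3 were also called lower (background 0.552%). They were *Ncr1* (log2 fold change −2.04, adjusted p = 0.00388), *Prf1* (−2.03, adjusted p = 0.00762) and *Gzma* (−1.94, adjusted p = 0.012). All 5 had an unadjusted p under 0.05 by edgeR, as had 941 of all 10698 genes. The part of NK cells in the *Ets1* difference was not tested.

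*Spic* in RPMs was 379 ± 38.5 CPM (SD, n = 4) in the libraries labelled IL1RL1-/- and 308 ± 30.9 CPM in WT, without overlap. The log2 fold change of 0.29 ± 0.11 (SE, adjusted p = 0.593, edgeR) did not pass, nor did its difference from WT in the change from pre-RPMs to RPMs (0.54 ± 0.28, adjusted p = 0.859). In monocytes and pre-RPMs, *Spic* differed by 0.01 ± 0.44 and −0.24 ± 0.19. *Fli1* in RPMs was 38.4 ± 1.25 CPM in the libraries labelled IL1RL1-/- and 45.6 ± 1.52 CPM in WT, again without overlap, and its log2 fold change of −0.25 ± 0.08 had an adjusted p of 0.518. For *Spi1*, the differences were 0.04 ± 0.31, 0.07 ± 0.10 and −0.04 ± 0.11 in monocytes, pre-RPMs and RPMs.

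**Figure D5:**
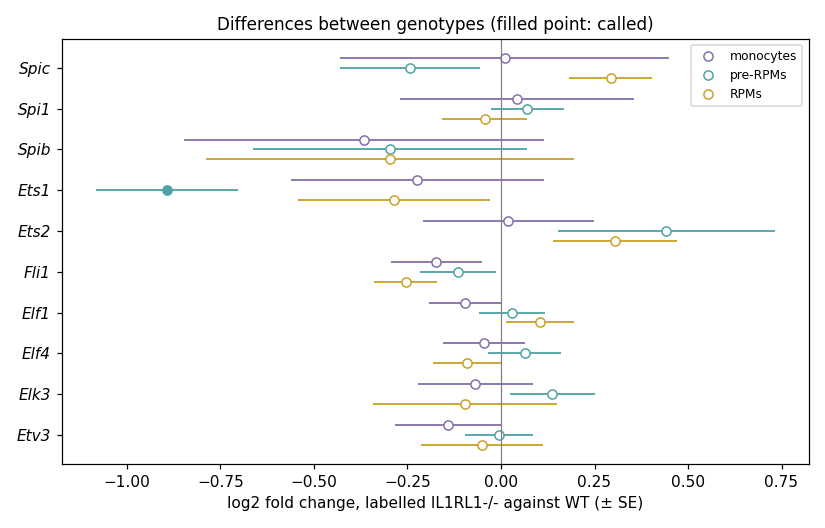
Log2 fold change (x axis, ± SE) of each of the 10 ETS factors (y axis) in libraries labelled IL1RL1-/- relative to WT, in monocytes, pre-RPMs and RPMs. The only filled point, which passed an adjusted p of 0.05, is *Ets1* in pre-RPMs, at −0.89.

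Of the 17 other ETS genes, 8 passed the filter between WT pre-RPMs and WT RPMs, and 3 of them rose (background 14.0%) and none fell (10.7%). *Etv5* and *Etv1*, both of the PEA3 subfamily, rose most. *Etv5* was 1.63, 1.05, 3.44 and 1.67 CPM in WT pre-RPMs and 48.3, 38.8, 50.7 and 41.7 CPM in WT RPMs, a rise of 4.45 ± 0.23 (log2 fold change ± SE, adjusted p = 1.31e-09, edgeR) that was 4.11 ± 0.17 (adjusted p = 1.86e-11) in the libraries labelled IL1RL1-/-. *Etv1* rose by 3.62 ± 0.52 (adjusted p = 4.29e-05) and 2.83 ± 0.28 (adjusted p = 5.18e-07), from 0 to 10 reads per WT pre-RPM library, with a level of 10.4 ± 1.21 CPM (SD, n = 4) in WT RPMs. *Etv1* was at 0 in the WT pre-RPM libraries of mice 1 and 2. It was therefore tested in WT only because it was high in RPMs, and its fold is not exact. Without the WT pre-RPM library of mouse 3, its rise in WT was 5.20. *Elk1*, a ternary complex factor like *Elk3* but an activator, rose by 1.11 ± 0.22 (adjusted p = 0.000875) and 1.43 ± 0.22 (adjusted p = 5.68e-05). Without the WT pre-RPM library of mouse 2, *Elk1* was at 0.98 and not called. *Etv6*, a transcriptional repressor that acts in blood stem cells and megakaryocytes, was at 0.49 ± 0.10 (adjusted p = 0.000904) in WT, under 2-fold. In the libraries labelled IL1RL1-/-, 9 were tested, the same 3 rose (background 14.5%) and 1 fell (11.5%), *Ehf*, which is named after its values were seen and had at most 4 reads in each RPM library. The median over the tested genes was 0.26 in WT and 0.00 in libraries labelled IL1RL1-/-, beside −0.001 and −0.002 over all genes tested, which are also the values to set beside the lists that follow.

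Several of 15 factors that bind or oppose ETS proteins fell at the second step, into RPMs. Under the WT label, 6 of 14 tested fell (background 10.7%) and none rose (14.0%), with a median log2 fold change of −0.68 against −0.001 over all genes. *Bach1*, the heme-sensitive repressor of *Spic*, was 159, 142, 168 and 151 CPM in WT pre-RPMs and 25.3, 30.3, 26.6 and 30.8 CPM in WT RPMs, a log2 fold change of −2.503 ± 0.114 (adjusted p = 5.17e-10, edgeR). *Cebpb*, a factor of monocytes, fell by 2.47 ± 0.14 (adjusted p = 3.94e-09), and *Fos*, part of AP-1, fell by 2.78 ± 0.27 (adjusted p = 7.55e-07). *Irf4* and *Cebpa* were the other called genes beside *Gata2*. Among libraries labelled IL1RL1-/-, 5 of 12 tested fell (background 11.5%) and none rose (14.5%), and *Bach1* fell by 2.36 ± 0.09 (adjusted p = 9.28e-12).

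*Gata2*, a factor of mast cells, basophils and blood stem cells, was also the single gene of this list called between genotypes. In pre-RPMs, it was 9.34, 4.74, 23.6 and 12.2 CPM in WT and 0.949, 1.53, 0.896 and 2.43 CPM in libraries labelled IL1RL1-/-, a difference of −3.01 ± 0.45 (log2 fold change ± SE, adjusted p = 0.00328, edgeR). The groups did not overlap, and the WT library of mouse 3 was the highest. The library labelled IL1RL1-/- of mouse 3, at 0.896 CPM, held 3 counts of the gene. *Gata2* passed the filter in this comparison only because it was high in WT, so the difference is a description and its fold is not exact. The 5 basophil and mast cell markers summed to 8.17, 6.32, 33.2 and 15.8 CPM in WT pre-RPMs, in the same order as *Gata2*, and to 2.37, 3.58, 2.99 and 2.62 CPM in the libraries labelled IL1RL1-/-, where *Fcer1a* was at 0 in all 4. *Hdc* was the most abundant of them in both, and the part of these cells in the *Gata2* level was not tested.

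Of 14 myeloid genes known as targets of PU.1, 3 rose (background 14.0%) and 5 fell (10.7%) from WT pre-RPMs to WT RPMs, where *Spi1* itself fell. The median log2 fold change was −0.17. *Cd14*, the co-receptor for lipopolysaccharide, rose by 3.38 ± 0.16 (adjusted p = 5.65e-10, edgeR), and *Tlr4* and *Csf1r* also rose. *Lyz2*, encoding lysozyme, fell from 4119 ± 211 CPM (SD, n = 4) to 45.0 ± 35.3 CPM, a log2 fold change of −6.56 ± 0.50 (adjusted p = 8.18e-08). The scavenger receptor *Msr1* fell by 5.28 ± 0.30 (adjusted p = 3.54e-09) and the NADPH oxidase subunit *Ncf1* by 2.94 ± 0.17 (adjusted p = 4.14e-09), with *Cybb* and *Csf3r* the other genes called. Without the WT RPM library of mouse 2, the changes were −7.165 for *Lyz2* and −6.163 for *Msr1*. Under the label IL1RL1-/-, 3 rose (background 14.5%) and 6 fell (11.5%), and the median was −0.30. From monocytes to pre-RPMs, edgeR called none of the 14 in either genotype, although 10 in WT and 11 in libraries labelled IL1RL1-/- had an unadjusted p under 0.05, as did 3540 of 11091 and 3425 of 11196 among all genes tested, and the medians were 0.71 and 0.75. Between genotypes none was called either. By edgeR, 0 of 14, 1 of 14 and 1 of 13 had an unadjusted p under 0.05 in monocytes, pre-RPMs and RPMs. Among all genes tested, 410 of 11405, 941 of 10698 and 811 of 11150 had one.

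The 7 red pulp macrophage genes associated with *Spic* (*Slc40a1*, *Cd5l*, *Vcam1*, *Cd163*, *Itgad*, *Hmox1* and *Treml4*) all rose from pre-RPMs to RPMs in both genotypes, against backgrounds of 14.0% (WT) and 14.5%. The median log2 fold change was 6.15 in WT and 7.99 in libraries labelled IL1RL1-/-. From monocytes to pre-RPMs, only 6 passed the filter in WT and 4 in libraries labelled IL1RL1-/-. The rest were tested at the second step because they are high in RPMs, so the 7 of 7 and these medians are descriptions only. *Slc40a1*, encoding the iron exporter ferroportin, was 9.57, 6.32, 28.3 and 19.6 CPM in WT pre-RPMs and 1586, 1393, 1746 and 1888 CPM in WT RPMs, a rise of 6.65 ± 0.39 (adjusted p = 5.07e-09, edgeR). *Vcam1*, an adhesion molecule, rose by 6.82 ± 0.73 (adjusted p = 2.41e-06) and *Itgad*, an integrin chain, by 6.70 ± 0.67 (adjusted p = 1.13e-06), each from a WT pre-RPM group in which mouse 3 was highest, with 42.1 CPM of *Vcam1* against 2.11 to 9.08 CPM in the other 3. *Cd5l*, a secreted scavenger protein, rose by 6.15 ± 0.42 (adjusted p = 2.66e-08) in WT. Without the WT pre-RPM library of mouse 3, the rises were 8.415 for *Vcam1*, 8.491 for *Itgad* and 7.435 for *Cd5l*. In pre-RPMs labelled IL1RL1-/-, *Cd5l* had at most 1 read per library, against 560 to 919 in RPMs. At the earlier step, from monocytes to pre-RPMs, 0 of 6 tested were called in WT (3 with an unadjusted p under 0.05, as had 3540 of all 11091 genes, and a background of 0.316% for a rise) and 1 of 4 (background 0.974%) in the libraries labelled IL1RL1-/-, *Hmox1* (1.12 ± 0.22, adjusted p = 0.00521), which encodes heme oxygenase and was at 1.92 (adjusted p = 0.0263) in WT. Between genotypes edgeR called none, with 0 of 4, 3 of 6 and 2 of 7 tested at an unadjusted p under 0.05 in monocytes, pre-RPMs and RPMs, where 410 of 11405, 941 of 10698 and 811 of 11150 of all genes had one. The difference between the genotypes in the change from pre-RPMs to RPMs called none of the 7 either. By edgeR, 6 had an unadjusted p under 0.05, as did 758 of all 12842 genes. The median difference was 1.355 (log2, greater in the libraries labelled IL1RL1-/-). Genes that did not pass the filter between monocytes and pre-RPMs entered this fit through groups in which they are high. This count and this median are therefore also descriptions only. The WT side of the difference includes the pre-RPM library of mouse 3, without which the rises of *Vcam1*, *Itgad* and *Cd5l* were larger, as given above. Several of the 7 also mark RPMs in the list used to check the labels, so their rise and that check are not separate observations.

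The genes whose log2 CPM over the 24 libraries was most like that of a member were found among 11672 genes by Pearson's r. It is given as a description, since the libraries share cell types, mouse numbers and depth. For *Spic* they were *Hebp1* (r = 0.994), *Adap2* (0.991) and *Axl* (0.991). For *Spi1* they were *Pgd* (0.977), *5031439G07Rik* (0.975) and *Samhd1* (0.975). For *Ets1* they were *Lck* (0.980), *Skap1* (0.972) and *Ablim1* (0.969), of which *Lck* is the T cell and NK cell kinase. For *Spib* they were *Ralgps2* (0.884), *Il7r* (0.872) and *Fcer2a* (0.814), of which *Fcer2a* is a B cell receptor for IgE. *Axl*, a receptor for apoptotic cells, followed *Spic* from 31.8 ± 22.3 CPM (SD, n = 4) in WT pre-RPMs to 1582 ± 127 CPM in WT RPMs.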

How the data were processed

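Transcripts were measured by stranded total RNA-seq of 24 sorted splenic libraries, 4 per group, each from a single mouse, while the ATAC-seq samples of the same series were not analysed here. After trimming, reads were aligned by the authors with STAR 2.5.1, counted per gene with featureCounts 1.6.2 on strand-specific exons of Ensembl release 95 (GRCm38, per the file headers) and deposited as unnormalized read counts. The submitters' processing notes also name cutadapt 2.8 and GRCh38, a human build. One gene, *Gm42418*, took from 24.4 to 38.8% of the counts of each library. Cell types were compared within a genotype and genotypes within a cell type by edgeR 4.0.16 (R 4.3.3) with filterByExpr, TMM scaling, the quasi-likelihood test and Benjamini-Hochberg adjustment over all genes tested. Differences between genotypes in a change were taken from a fit of all 24 libraries. SEs were derived from the F statistic, folds from the fitted log2 fold change. Figures were drawn with matplotlib 3.10.9. Tests were two-sided, and the test was checked on data simulated for the step from WT monocytes to WT pre-RPMs. At an adjusted p under 0.05 with no fold limit, it recovered 110 of 200 genes changed 2-fold and 187 of 200 changed 4-fold. Of the calls, 5.17% and 3.11% were false. The rule with an adjusted p under 0.01 and a 2-fold limit was not simulated. Alternatives included DESeq2 1.42.0, other filters and scalings, and the omission of each library. The members and gene lists were chosen with earlier results of these data known, and 1 monocyte marker of those lists is not reported here. Within each list other than the markers, the genes chosen for values were the 4 with the largest change from pre-RPMs to RPMs and those called between genotypes. Other genes of these lists were named where they were called, with values for *Hmox1*. Within a genotype, the labels give libraries of the 3 cell types the same mouse number, read here as the same animal although no source states it, and the median correlation of their deviations from the group means was between 0.0875 and 0.201. Between genotypes, where the same number marks different animals, it was 0.229 in monocytes and 0.158 in RPMs, over 0.1 in each of the 4 pairs, and 0.0839 in pre-RPMs, over 0.1 in 2 of 4. Fits with the mouse number as a block were alternatives.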

Additional observations from a re-analysis of the deposited data

Results flagged for a closer look

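In 6 of 66 groups of 4 libraries, 1 library lay far from the other 3 relative to the range of the group, where chance gives about 1 in 20. Of the pre-RPM libraries labelled IL1RL1-/-, that of mouse 1 had 9.02 CPM of *Spic* against 11.42 to 11.75 CPM in the other 3. The same library had 43.91 CPM of *Fli1* against 48.66 to 49.28 CPM. That of mouse 2 had 5.961 CPM of *Ets2* against 4.679 to 4.779 CPM. A WT pre-RPM library, that of mouse 3, had 87.05 CPM of *Elf1* against 74.01 to 74.55 CPM, and it was also the one with the most RPM markers. For *Elk3*, 1 WT monocyte library had 30.87 CPM against 40.31 to 41.92 CPM, and 1 WT RPM library had 17.79 CPM against 8.583 to 9.998 CPM.

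The change of *Il1rl1* from pre-RPMs to RPMs differed between the genotypes by −2.68 ± 0.47 (log2 fold change ± SE, adjusted p = 0.0344, edgeR, 24 libraries), since the gene was at 4.27 ± 1.06 CPM (SD, n = 4) in WT pre-RPMs and 12.4 ± 0.467 CPM in those labelled IL1RL1-/-, but at 1.95 ± 0.803 and 0.83 ± 0.484 CPM in the RPMs. The call was lost in 11 of 24 fits that each left out 1 library.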

How the results depend on the processing

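Of 523 log2 fold changes computed under settings other than the omission of a library, 497 kept their direction and their side of the threshold, as did 649 of 672 with a library left out. The number of members called changed with the threshold. At an adjusted p under 0.05 with no fold limit, 5 members were called from monocytes to pre-RPMs and 8 from monocytes to RPMs in each genotype, and at an adjusted p under 0.01 with a 2-fold limit 0 were called between genotypes in pre-RPMs, as in the fit of all 24 libraries, where *Ets1* was no longer called. With at least 10 counts required in every library, 1 member was called from monocytes to pre-RPMs in each genotype, because *Spic* was then not tested. With a library left out, the members called ranged from 1 to 2 from WT monocytes to WT pre-RPMs and from 0 to 1 between genotypes in pre-RPMs. Without the monocyte libraries of mice 1 and 2, chosen after seeing the data, the uncalled *Spib* changed sign, to 0.51 and 0.49 from WT monocytes to WT pre-RPMs and RPMs, 0.0907 and 0.0616 in the libraries labelled IL1RL1-/-, and 0.11 between genotypes in monocytes. With the mouse number as a replicate block, no call of a member changed, and *Ets1* between genotypes in pre-RPMs was −0.90 (adjusted p = 0.00609).

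Over all genes, 396 were called from WT monocytes to WT pre-RPMs, against 1624 at the other threshold, 694 by DESeq2, 1094 with every gene of at least 1 count, 217 with at least 10 counts in every library, 772 in the fit of all 24 libraries and 239 without the monocyte libraries of mice 1 and 2. The same step in the libraries labelled IL1RL1-/- gave 543, against 1912 at the other threshold, 1060 with at least 1 count, 264 with at least 10 and 321 without mice 1 and 2. From pre-RPMs to RPMs, 2776 (WT) and 2973 genes were called, against 5663 and 6182 at the other threshold and 1467 and 1542 with at least 10 counts. From monocytes to RPMs, 2769 and 3009 became 5343 and 5760, or 1470 and 1536, in the same order. Between genotypes, monocytes gave 7 genes, against 26 by DESeq2, 139 with at least 1 count, 3 with at least 10, 16 in the fit of all libraries and 27 with the block. Pre-RPMs gave 59, against 23 at the other threshold, 265, 39, 17 and 145 in the last 4 settings. RPMs gave 26, against 16 at the other threshold, 56 by DESeq2, 272 with at least 1 count and 81 with the block. The genotype difference gave 74 in place of 0 genes for the first step with at least 1 count, and for the second 16 by DESeq2, 197, 1 with at least 10 counts, 5 with the block and 13 from 16 libraries in place of 3. With a library left out, the first step gave from 169 (without the WT pre-RPM library of mouse 4) to 1041 genes (without the WT monocyte library of mouse 3) in WT and from 336 to 813 (without the monocyte libraries of mice 2 and 3) under the label IL1RL1-/-. Genotypes then differed in 1 to 8 genes in monocytes and 37 to 68 in pre-RPMs, and their second steps in 1 to 4. The causes were not tested.

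Scaling by the total without *Gm42418* turned no called member and shifted the median gene by −0.265 (log2) from WT monocytes to WT pre-RPMs and by −0.201 to WT RPMs. It put CPM at 1.247 to 1.84 times the TMM values and moved 55 mean levels of members in a group by more than the replicate SD. Levels that rest on few counts, as for *Spic* in monocytes, *Spib* in all groups and *Ets2* and *Etv1* outside RPMs, are limited by depth, and these limits cover counting error only. Each group has 4 animals.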

Other observations

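Markers of further cell types in the same libraries, fixed with the other lists, gave the following sums. The 4 plasma cell markers, with *Jchain* the most abundant, summed to 587.7, 448.1, 414.6 and 504.9 CPM in WT monocytes and to 1135, 1725, 709.4 and 333.6 CPM in the libraries labelled IL1RL1-/-, so that the latter were spread more widely. The 7 T cell markers had means of 23.4 CPM in WT monocytes, 17.3 CPM in WT pre-RPMs and 68.8 CPM in WT RPMs, where *Cd4* was the most abundant, and 55.3 CPM in RPMs labelled IL1RL1-/-. The 5 eosinophil markers went in sum from 58.5 CPM in WT pre-RPMs to 319 CPM in WT RPMs and from 46.3 to 347 CPM in the libraries labelled IL1RL1-/-. *Ccr3* was the most abundant of them, with 36.4 and 26.4 CPM in pre-RPMs and 312 and 339 CPM in RPMs in the same order, while *Siglecf* fell from pre-RPMs to RPMs labelled IL1RL1-/- (log2 fold change −2.41 ± 0.45 SE, adjusted p = 0.000305, edgeR) and did not pass the filter in WT. The 5 plasmacytoid dendritic cell markers, of cells in which *Spib* acts, lay between 40.4 and 63.5 CPM in the group means, mostly *Tcf4*, with *Cox6a2* at 0 in all monocyte libraries. The 5 conventional dendritic cell markers had a mean of 77.2 CPM in WT monocytes, 33.0 CPM in WT pre-RPMs and 13.2 CPM in WT RPMs. The 5 endothelial markers stayed under 5 CPM in every library, and the 5 megakaryocyte and platelet markers, of cells that use *Fli1*, had group means of at most 5.39 CPM. In the comparison of RPMs between genotypes, *S100a9* was the 1 neutrophil marker tested and was lower in the libraries labelled IL1RL1-/- (background 0.233%). Its mean was 5.57 CPM in WT RPMs and 0.981 CPM, near the floor, in RPMs labelled IL1RL1-/-. It was thus tested only because it was higher in WT, and its direction is a description only. In pre-RPMs, 2 of 6 B cell markers, *Pax5* and *Ms4a1*, were called lower in the libraries labelled IL1RL1-/- (background 0.552%). All 6 had an unadjusted p under 0.05 by edgeR, as had 941 of all 10698 genes. Their median log2 fold change was −1.061, and *Spib* did not pass there.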
